A study of Mus musculus with 9 samples.

Results

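The comparison described here sets 3 libraries of CD4+ T cells exposed to exosomes of ApoE-deficient macrophages (EKO_exo) against 3 exposed to exosomes of wild-type macrophages (WT_exo). These are 6 of the 9 libraries of the study, taken by their sample titles, and the other 3 received phosphate-buffered saline (PBS) and are used to show on which side a difference lay. All 9 cultures were splenic helper T cells of male mice aged 6 to 12 weeks. All were stimulated with beads that engage CD3 and CD28 and with 5 ng/mL of murine IL-2. The exosomes were given at 2e+09 particles per mL during the same 18 h. BMDM, the abbreviation in the group labels, usually stands for macrophages grown from bone marrow. The labels call the T cells wild type in every group, so the ApoE deficiency lies in the donors of the vesicles and Apoe in the sequenced cells does not check the group labels. How many mice, macrophage cultures or exosome preparations stand behind the 3 libraries of a group is not given in the sources used here. The title of the series asks what ApoE does in the signals that reach CD4+ T cells during activation and proliferation.

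Apolipoprotein E is a lipid-carrying protein that macrophages make and secrete, and it serves as a ligand for receptors of the low-density lipoprotein family. Exosomes are small membrane vesicles that carry protein, lipid and RNA from a donor cell to a recipient cell. A CD4+ T cell triggered through CD3 and CD28 switches on cytokine and receptor genes, raises ribosome production and glycolysis and enters the cell cycle, so a signal that altered activation would be looked for among those genes.

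The libraries held 25792975 to 32971791 counts in genes. Markers of CD4+ T cells were high in all 9: Cd4, the coreceptor, lay between 819.6 and 897.4 CPM (counts relative to the scaled library size), and Cd3e, a chain of the CD3 complex, between 460.5 and 537.3 CPM. Cd8a, which marks the other main T cell class, lay between 0.16 and 1.06 CPM in the exosome libraries. The 7 listed CD8 T cell markers, Cd8a and Cd8b1 among them, summed to more. Their level was 36.9 to 39.7 CPM in EKO_exo, 32 to 37.7 CPM in WT_exo and 33 to 35.6 CPM in PBS. Each EKO_exo library stood apart from the rest on a principal component of log2 CPM of its own. Replicate 3 did so on the first (18.8% of the variance), replicate 1 on the second (15.7%) and replicate 2 on the third (13.4%). WT_exo libraries stood out on the next components. On the fourth (11.7%) WT_exo replicate 1 lay at 33 and EKO_exo replicate 2 at -32.5. On the fifth (11.2%) WT_exo replicate 2 lay at 40.1 and WT_exo replicate 1 at -28.1. Fewer genes had at least 1 count in EKO_exo (19038 to 19518) than in the other 6 libraries (19989 to 20568; exact permutation p = 0.1 against WT_exo, two-sided, the smallest that 3 against 3 can give). Genes with at least 5 counts numbered 15714 to 16049 in EKO_exo, 16184 to 16400 in WT_exo and 16036 to 16249 in PBS, so that EKO_exo then overlapped PBS but not WT_exo. These gene numbers are not corrected for depth. The libraries held 25792975 to 30221565 counts in EKO_exo, 29138950 to 32971791 in WT_exo and 28412418 to 30464334 in PBS. The spread between libraries within EKO_exo was also wider. Among genes of 100 CPM and over, the median SD of log2 CPM was 0.050 in EKO_exo, 0.038 in WT_exo and 0.042 in PBS. Where leaving out a single library changed the call of a gene described below, that is stated with the gene.

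Few mRNAs of the T cells differed detectably between the exosome sources. Of 14684 genes tested, 5 passed the test between EKO_exo and WT_exo (0.0341%; edgeR quasi-likelihood test, Benjamini-Hochberg adjusted p under 0.05), 4 of them higher in EKO_exo (0.0272%) and 1 lower (0.00681%). The genes higher in EKO_exo were Igkc and Ighg2c, which encode constant parts of antibody chains, mt-Nd4, a subunit of respiratory complex I encoded in the mitochondrial genome, and B2m, which encodes the small subunit common to MHC class I proteins. Tpt1, whose mRNA belongs to the growth-controlled messages of the translation machinery, was the gene lower in EKO_exo. Ighg2c differed by 2.29-fold, Igkc by 1.34-fold, mt-Nd4 by 1.15-fold and B2m by 1.09-fold, and Tpt1 was at 0.892 of its level in WT_exo. In the same fit 746 genes (5.08%) differed between EKO_exo and PBS, 325 of them higher (2.21%) and 421 lower (2.87%) with exosomes. Between WT_exo and PBS 730 genes (4.97%) differed, 269 higher (1.83%) and 461 lower (3.14%). These contrasts share libraries with the one between sources. The CPM of the 3 EKO_exo and the 3 WT_exo libraries did not overlap for 1740 genes (11.8%), 863 higher (5.88%) and 877 lower (5.97%) in EKO_exo.

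For most genes the data also bounded how large a difference between these EKO_exo and WT_exo cultures could be. The bounds rest on a spread among cultures pooled over all groups, though that within EKO_exo was wider. They may not cover variation between exosome preparations, whose number is not given. The 95% interval of the fold change lay within 1.5-fold in either direction for 9344 genes (63.6%) and within 2-fold for 10702 (72.9%). That held for all 2589 genes of 100 CPM and over and, at 1.5-fold, for 4608 of 4614 genes between 20 and 100 CPM, but for 140 of 2126 genes between 1 and 5 CPM and for 0 of 2988 genes below 1 CPM. Differences of 1.5-fold were thus left unbounded for most genes below 5 CPM, and cytokine genes at such levels share this limit. At an unadjusted p under 0.05 stood 1039 genes (7.08%), 571 higher and 468 lower in EKO_exo. The lowest adjusted p among genes that did not pass was 0.0543, for Rpl29.

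**Figure D1:**
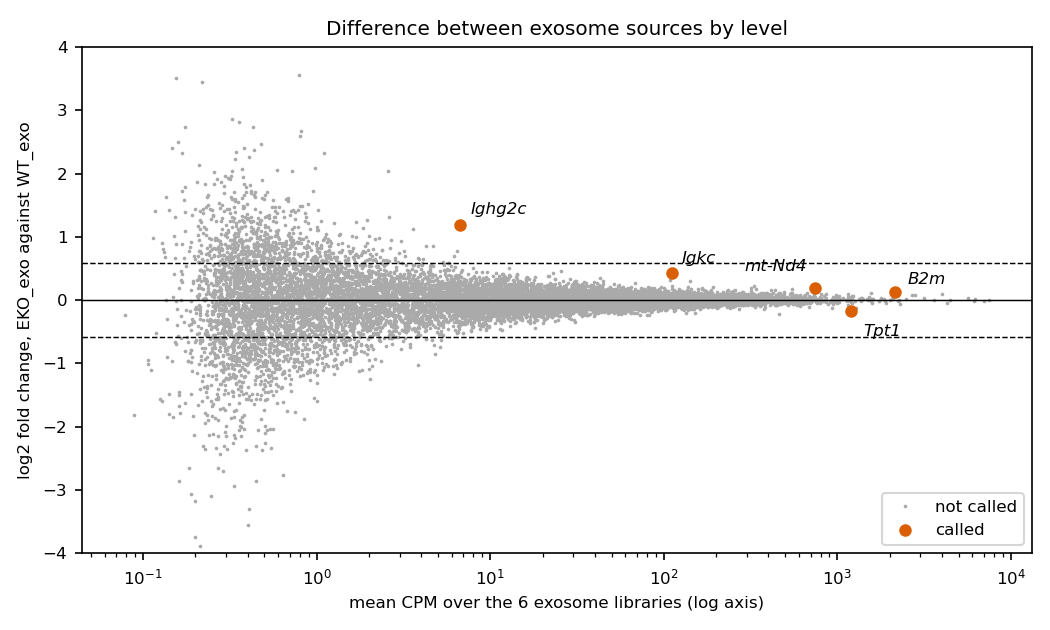
Log2 fold change of EKO_exo against WT_exo (y axis) for each of the 14684 genes tested against its mean CPM over the 6 exosome libraries (x axis, log scale). Orange points are the 5 genes that passed the test, grey points those that did not, dashed lines mark 1.5-fold, and 9 genes lie beyond the y axis. The cloud narrows with level: the median size of the log2 fold change was 0.475 below 1 CPM and 0.03 at 100 CPM and over, and 4 of the 5 called genes have a mean of 100 CPM or more.

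Igkc (ENSMUSG00000076609, GRCm38 chromosome 6, 70726435 to 70726966, plus strand) encodes the constant region of the kappa light chain of antibodies. It measured 121 CPM, 127 CPM and 133 CPM in EKO_exo replicates 1, 2 and 3, and 92.8 CPM, 86.5 CPM and 104 CPM in those of WT_exo. PBS libraries held 98.3 CPM, 111 CPM and 105 CPM. Every EKO_exo library was above every library of the other groups. The log2 fold change against WT_exo was 0.43 ± 0.061 (SE, 95% interval 0.30 to 0.55), with an adjusted p of 0.00219 in edgeR. Against PBS, EKO_exo was higher by 0.28 (adjusted p = 0.0046), while WT_exo lay at -0.15 (adjusted p = 0.214). The call was lost without WT_exo replicate 1 (adjusted p = 0.0538) and without WT_exo replicate 2 (adjusted p = 0.06), and held without any other library.

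Ighg2c (ENSMUSG00000076612, chromosome 12, 113285325 to 113288932, minus strand), the constant region of the IgG2c heavy chain, was the called gene with the widest fold change and the lowest level. Its EKO_exo libraries held 8.30 CPM, 10.1 CPM and 9.63 CPM. The WT_exo libraries held 4.53 CPM, 4.79 CPM and 2.94 CPM. The PBS libraries ranged from 5.71 CPM in replicate 1 to 10.7 CPM in replicate 2, so that 2 of the 3 were above every EKO_exo library. The difference between sources was 1.19 ± 0.21 log2 (95% interval 0.76 to 1.63, adjusted p = 0.0207, edgeR). The difference in Ighg2c lay on the WT_exo side: WT_exo was lower than PBS by a log2 fold change of -1.14 (adjusted p = 0.0009), and EKO_exo against PBS was at 0.06 (adjusted p = 0.934). Without EKO_exo replicate 2 its adjusted p was 0.116, without EKO_exo replicate 3 it was 0.0501, and without WT_exo replicates 1, 2 and 3 it was 0.0842, 0.0643 and 0.352.

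The other antibody genes were examined as a family after these values were seen. Of 11 constant-region genes, 9 had a positive log2 fold change in EKO_exo, 2 passed the test and the median was 0.18, beside 0.002 over all genes. Ighm, the constant region of IgM and the antibody gene with the most counts, lay at 482 CPM, 484 CPM and 470 CPM in EKO_exo and at 446 CPM, 419 CPM and 467 CPM in WT_exo. The groups of Ighm did not overlap, and the difference of 0.11 ± 0.037 log2 did not pass (adjusted p = 0.528, edgeR). Summed over the constant regions, the level was 643 ± 6.5 CPM in EKO_exo, 566 ± 31.9 CPM in WT_exo and 568 ± 22.3 CPM in PBS (SD, n = 3 each; exact permutation p = 0.1 between sources, two-sided). That sum holds Igkc, Ighg2c and Ighm, so it is no separate support for a difference in them. Variable-region genes summed to 126 ± 3.6 CPM, 97.0 ± 19.3 CPM and 116 ± 13.9 CPM in the same order. Of 106 variable genes 73 had a positive and 33 a negative log2 fold change. At an unadjusted p under 0.05 stood 16 higher and 2 lower (all genes tested: 571 and 468 of 14684), and 10 and 2 did not overlap (5.88% and 5.97%). The variable gene with the smallest p was Igkv12-89, at 1.96 CPM, 1.20 CPM and 1.20 CPM in EKO_exo against 0.26 CPM, 0.10 CPM and 0 CPM in WT_exo, and it did not pass (adjusted p = 0.0984, edgeR). On every gene with at least 1 count edgeR called it, Igkv6-15 and Ighv1-26, and on the 6 exosome libraries alone Igkv6-15. Antibody genes are near-copies of each other, and how the counting dealt with reads shared between them is not given in the sources used here.

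Antibody mRNA is made by B cells and plasma cells, and the other genes of those cells did not move with it beyond the test. Of 11 B cell and plasma cell genes, chosen after the values were seen and without antibody genes, 0 passed, and 0 reached an unadjusted p under 0.05. Cd74, the invariant chain of MHC class II, was at 89.6 CPM, 95.1 CPM and 95.3 CPM in EKO_exo and at 94.4 CPM, 95.2 CPM and 89.8 CPM in WT_exo. Jchain, which joins antibody units in plasma cells, was at 13.4 CPM, 14.6 CPM and 9.93 CPM against 12.6 CPM, 9.52 CPM and 12.1 CPM. Cd79b, part of the B cell receptor complex, reached at most 2.30 CPM in any of the 9 libraries. Over 15 tested of 18 listed B cell markers, Igkc and Ighm included, the summed level was 755 to 762 CPM in EKO_exo, 664 to 718 CPM in WT_exo and 657 to 697 CPM in PBS. In that wider list 2 genes reached an unadjusted p under 0.05 as higher, Igkc and Ighm, and 1 as lower, where 571 and 468 of all 14684 genes tested did. The lower gene was H2-Ab1, an MHC class II chain, at -0.25 log2 (unadjusted p = 0.0408, edgeR). Ebf1, Fcer2a and Cr2 were below the count filter. In bulk RNA fewer cells of a type and less RNA per cell cannot be told apart, and the part of B lineage cells in the antibody genes was not tested.

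**Figure D2:**
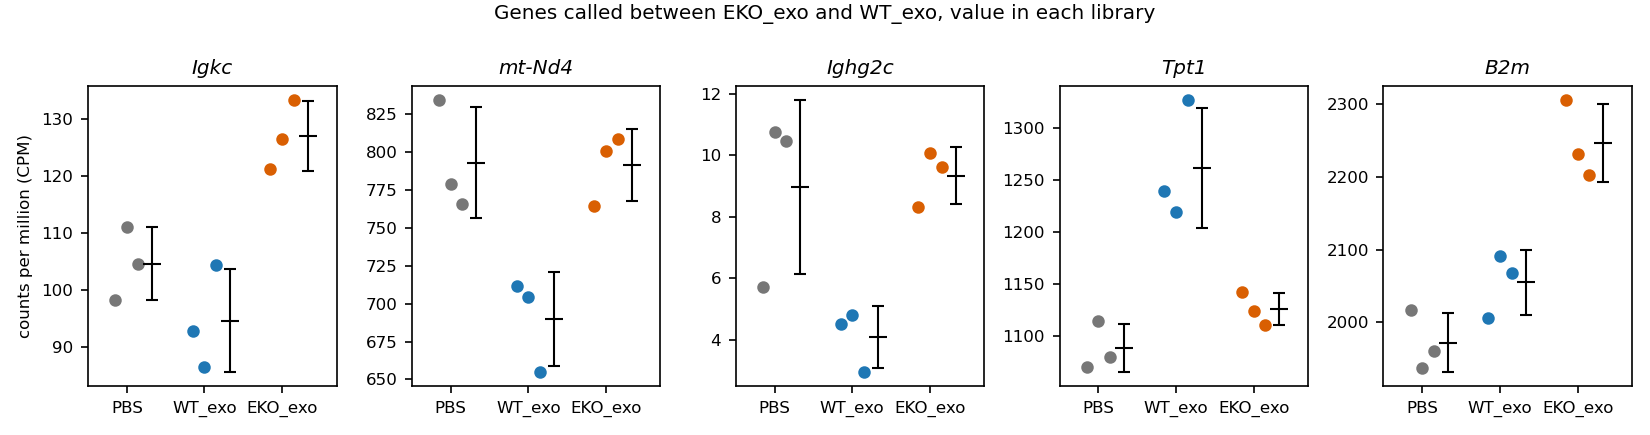
CPM (y axis, not starting at 0 and scaled per gene) of the 5 called genes in each library, by group on the x axis. Points are the 3 libraries of a group in replicate order, and the bar beside them is the mean ± SD. EKO_exo and WT_exo do not overlap in any panel, and PBS lies with EKO_exo for mt-Nd4 and Tpt1 and with WT_exo for B2m and Igkc.

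mt-Nd4 (ENSMUSG00000064363, mitochondrial genome, 10167 to 11544, plus strand) encodes subunit 4 of NADH dehydrogenase, the entry complex of the respiratory chain. EKO_exo libraries held 764 CPM, 801 CPM and 809 CPM, and WT_exo libraries held 712 CPM, 704 CPM and 655 CPM. PBS libraries, at 834.5 CPM, 779 CPM and 766 CPM, lay in the range of EKO_exo or above it. The difference between sources was 0.20 ± 0.035 log2 (95% interval 0.13 to 0.27, adjusted p = 0.0207, edgeR). WT_exo was lower than PBS by a log2 fold change of -0.20 (adjusted p = 0.000498), and EKO_exo was at 0.00 against PBS (adjusted p = 0.98). The mt-Nd4 call was lost without EKO_exo replicate 2 (adjusted p = 0.116) or 3 (0.0986) and without WT_exo replicate 1 (0.0596), 2 (0.0778) or 3 (0.352).

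The rest of the mitochondrial genome did not share that difference in full. Of 9 mitochondrial genes tested, 1 passed, and the median log2 fold change was 0.019. mt-Cytb, cytochrome b of complex III, was at 3989 CPM, 4061 CPM and 4298 CPM in EKO_exo and at 4021 CPM, 3890 CPM and 3681 CPM in WT_exo, overlapping at 0.09 ± 0.026 log2 (adjusted p = 0.426, edgeR). mt-Nd5, another complex I subunit, was at 0.09 ± 0.033 (adjusted p = 0.583). mt-Co1, a subunit of cytochrome oxidase and the mitochondrial mRNA with the most counts, was at 0.02 ± 0.023 (adjusted p = 0.892). mt-Rnr2, the large ribosomal RNA, lay at -0.12 ± 0.034 (adjusted p = 0.426). The mitochondrial share of all counts was 2.28 ± 0.0727% in EKO_exo, 2.24 ± 0.0733% in WT_exo and 2.36 ± 0.0266% in PBS (SD, n = 3 each; exact permutation p = 0.5 between sources). Of the 13 mitochondrial mRNAs, 7 were tested. mt-Co2, mt-Co3, mt-Atp6, mt-Atp8 and mt-Nd4l were listed at 0 in all 9 libraries, and mt-Nd4l overlaps mt-Nd4, so this table holds the mitochondrial genome in part.

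Tpt1 (ENSMUSG00000060126, chromosome 14, 75845093 to 75848525, plus strand) encodes translationally controlled tumour protein, and its mRNA starts with the 5′ terminal pyrimidine tract that ties translation to growth signals. It measured 1142 CPM, 1124 CPM and 1111 CPM in EKO_exo, 1239 CPM, 1219 CPM and 1327 CPM in WT_exo and 1070 CPM, 1114 CPM and 1080 CPM in PBS. The WT_exo libraries were the high ones, and those of EKO_exo and PBS overlapped. Tpt1 fell by 0.16 ± 0.029 on the log2 scale from WT_exo to EKO_exo (95% interval -0.22 to -0.10, adjusted p = 0.0207, edgeR). WT_exo was above PBS by 0.21 (adjusted p = 2.43e-05), while EKO_exo was at 0.05 (adjusted p = 0.429). The adjusted p was 0.116 without EKO_exo replicate 2, 0.0858 without EKO_exo replicate 3, and 0.0648, 0.06 and 0.352 without WT_exo replicates 1, 2 and 3. Tpt1 has processed pseudogenes, and the handling of reads they share is not given in the sources used here.

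Among 19 translation factors whose mRNAs carry the same kind of tract, Tpt1 alone passed the test, and their median log2 fold change was 0.008. Eef1a1, an elongation factor, was at 4140 CPM, 4314 CPM and 4149 CPM in EKO_exo against 4319 CPM, 4261 CPM and 4402 CPM in WT_exo, or -0.04 ± 0.021 log2 (adjusted p = 0.7, edgeR). Btf3, a transcription and nascent-chain factor, lay at -0.14 ± 0.049 (adjusted p = 0.512) with groups that did not overlap. Pabpc1, the cytoplasmic poly(A)-binding protein, lay the other way at 0.09 ± 0.024 (adjusted p = 0.38). Eef2, the factor with the highest level at 6861 to 7112 CPM in the exosome libraries, was at -0.01 ± 0.017 (adjusted p = 0.933).

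B2m (ENSMUSG00000060802, chromosome 2, 122147686 to 122153083, plus strand) encodes beta-2 microglobulin, the chain that every classical MHC class I molecule shares. It measured 2306 CPM, 2231 CPM and 2203 CPM in EKO_exo, 2006 CPM, 2092 CPM and 2068 CPM in WT_exo and 2017 CPM, 1938 CPM and 1961 CPM in PBS. EKO_exo libraries were above all others. The difference between sources was 0.13 ± 0.024 log2 (95% interval 0.08 to 0.18, adjusted p = 0.0403, edgeR). Against PBS, EKO_exo was higher by 0.19 (adjusted p = 1.2e-05) and WT_exo was at 0.06 (adjusted p = 0.195). B2m was the least stable of the 5 calls: its adjusted p was 0.149 without EKO_exo replicate 1, 0.116 without EKO_exo replicate 2, 0.0574 without PBS replicate 2, and 0.407, 0.0812 and 0.225 without WT_exo replicates 1, 2 and 3. It was also lost with a robust prior in the fit (adjusted p = 0.0713).

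The heavy chains that pair with B2m and the machinery that loads peptides onto them did not differ between sources beyond the test. Of 19 genes of MHC class I and peptide loading, B2m alone passed, and their median log2 fold change was 0.022. H2-K1, a classical heavy chain, was at 2141 CPM, 2085 CPM and 2094 CPM in EKO_exo against 1994 CPM, 2066 CPM and 2136 CPM in WT_exo, or 0.03 ± 0.025 log2. H2-D1, the other classical heavy chain, was at 0.02 ± 0.025. Tap1 and Tap2, which pair to form the peptide transporter, were at 0.05 ± 0.029 and -0.02 ± 0.036. Calr, the chaperone calreticulin, was at 0.07 ± 0.027 with an adjusted p of 0.574 (edgeR). H2-K1 was above PBS in EKO_exo by 0.14 (adjusted p = 0.00059) and in WT_exo by 0.11 (adjusted p = 0.00568), and Tap2 by 0.23 (adjusted p = 0.00014) and 0.25 (adjusted p = 4.81e-05).

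**Figure D3:**
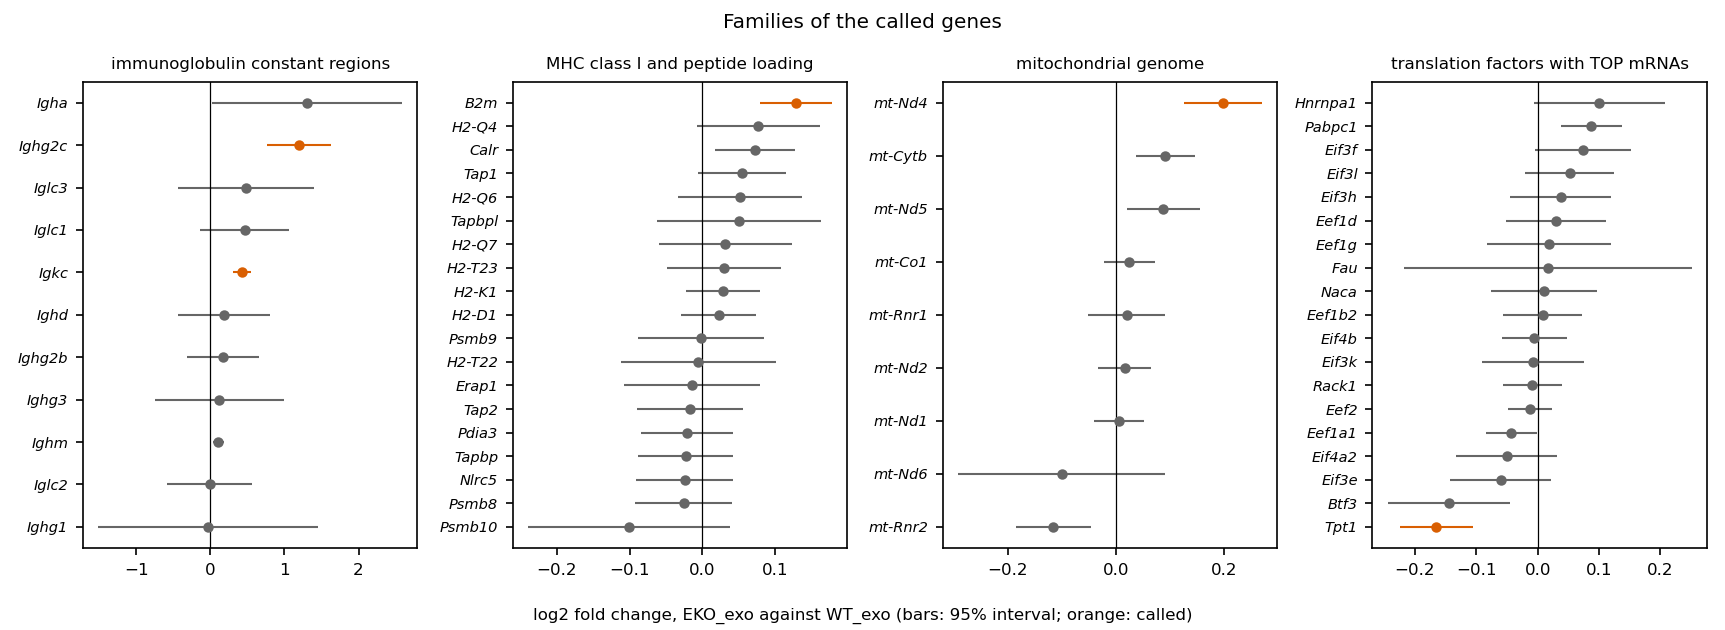
Log2 fold change of EKO_exo against WT_exo with its 95% interval (x axis, scaled per panel) for each tested member (y axis) of the families of the called genes, which are in orange. B2m, mt-Nd4 and Tpt1 are the outermost members of their panels, and of 11 antibody constant regions 2 were called, of 19 MHC class I genes 1, of 9 mitochondrial genes 1 and of 19 translation factors 1.

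Genes next in order of p, none of which passed the edgeR test on all 9 libraries with the standard filter and scaling, included several of the ribosome. Rpl29, a protein of the large subunit, was at 169 CPM, 164 CPM and 139 CPM in EKO_exo and at 124 CPM, 127 CPM and 129.5 CPM in WT_exo, a difference of 0.31 ± 0.061 log2 (adjusted p = 0.0543). PBS replicate 1, at 141 CPM, was above EKO_exo replicate 3. Rps16 and Rps20, of the small subunit, were at 0.19 ± 0.042 and 0.18 ± 0.040 (adjusted p = 0.196 each), and Rpl30 was at 0.21 ± 0.051 (adjusted p = 0.215). For all 4 the groups did not overlap. DESeq2 called all 4 as higher in EKO_exo, with an adjusted p of 0.00211 for Rpl29, 0.00858 for Rps16, 0.0113 for Rps20 and 0.014 for Rpl30. edgeR called Rpl29 with median-ratio (RLE) size factors (adjusted p = 0.0465), on the 6 exosome libraries alone (adjusted p = 0.0237), without EKO_exo replicate 3 (adjusted p = 0.00285) and without PBS replicate 1 (adjusted p = 0.0257). limma-voom with quality weights called it too (adjusted p = 0.023). On genes averaging 5 CPM or more edgeR called Rpl29 (adjusted p = 0.00185), Rps16 and Rps20 (adjusted p = 0.0235 each), and without EKO_exo replicate 3 it called Rps20 (adjusted p = 0.0258). On every gene with at least 1 count it called all 4. The whole list of 64 cytosolic ribosomal protein genes, which does not hold Rpl29, was divided in direction: 34 had a positive and 30 a negative log2 fold change, with a median of 0.014 and 0 called. At an unadjusted p under 0.05 stood 13 higher and 5 lower, where 571 and 468 of all 14684 genes tested did. The groups did not overlap for 9 higher and 5 lower, where 5.88% and 5.97% of all genes tested did not. Rpl26, also of the large subunit, held 127 CPM and 137 CPM in EKO_exo replicates 1 and 2 but 96.7 CPM in replicate 3, where WT_exo held 92.9 to 99.1 CPM and PBS replicate 1 held 124.5 CPM. Without EKO_exo replicate 3 edgeR called Rpl26 too. Rps24 and Rps25 had the same order, with EKO_exo replicates 1 and 2 and PBS replicate 1 high and EKO_exo replicate 3 nearer to WT_exo. Ribosomal protein genes have many processed copies in the genome, so their counts depend on a handling of shared reads that is not given in the sources used here.

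On the lower side the genes with the smallest p after Tpt1 included Flna, the actin crosslinker filamin A, at 909 CPM, 895 CPM and 874 CPM in EKO_exo against 993 CPM, 951 CPM and 967 CPM in WT_exo (-0.12 ± 0.028 log2, adjusted p = 0.199 in edgeR, 0.0033 in DESeq2 and 0.049 in limma-voom). Also among them were 2 subunits of calcineurin, the calcium-dependent phosphatase that activates NFAT factors after T cell receptor signals. Ppp3cb, a catalytic subunit, held 75.2 CPM, 76.2 CPM and 70.2 CPM in EKO_exo and 86.5 CPM, 86.2 CPM and 88.1 CPM in WT_exo. Ppp3r1, the regulatory subunit, held 74.0 CPM, 76.8 CPM and 76.7 CPM against 89.8 CPM, 86.9 CPM and 90.5 CPM. Neither overlapped between the exosome groups, and neither passed, at -0.24 ± 0.055 log2 (adjusted p = 0.199, edgeR) and -0.23 ± 0.057 (adjusted p = 0.243). DESeq2 called both, with adjusted p = 0.0059 for Ppp3cb and adjusted p = 0.0159 for Ppp3r1. PBS lay between the groups for Ppp3cb, at 82.4 CPM to 83.9 CPM. The other 8 of 10 calcineurin and NFAT genes had unadjusted p-values over 0.05: Ppp3ca, the main catalytic subunit in many tissues, was at -0.04 (95% interval -0.22 to 0.14), and Nfatc1 and Nfatc2, transcription factors released by calcineurin, at 0.06 (-0.02 to 0.15) and 0.07 (-0.02 to 0.17).

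Lars2, a mitochondrial leucyl-tRNA synthetase, was at 465 CPM, 423.5 CPM and 399 CPM in EKO_exo and at 519 CPM, 477 CPM and 496 CPM in WT_exo (-0.21 ± 0.052 log2, adjusted p = 0.243). edgeR called it without EKO_exo replicate 1, at -0.27 (adjusted p = 0.0248), on genes averaging 5 CPM or more (adjusted p = 0.0235) and on every gene with at least 1 count (adjusted p = 2.12e-05). Tagap, a GTPase-activating protein of activated T cells, was at -0.20 ± 0.049 (adjusted p = 0.245), and it was higher than in PBS in either exosome group, by 0.18 in EKO_exo (adjusted p = 0.0303) and by 0.37 in WT_exo (adjusted p = 1.27e-05). Pcgf5, a Polycomb subunit, was at -0.21 ± 0.053 (adjusted p = 0.299) and Ift122, a subunit of the cilium transport complex, at -0.74 ± 0.198 with 3.52 to 4.03 CPM in EKO_exo and 5.01 to 7.43 CPM in WT_exo (adjusted p = 0.33). DESeq2 called Tagap (adjusted p = 0.0228) and Pcgf5 (adjusted p = 0.0466), and so did edgeR on every gene with at least 1 count (adjusted p = 0.0388 and adjusted p = 0.0275).

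**Figure D4:**
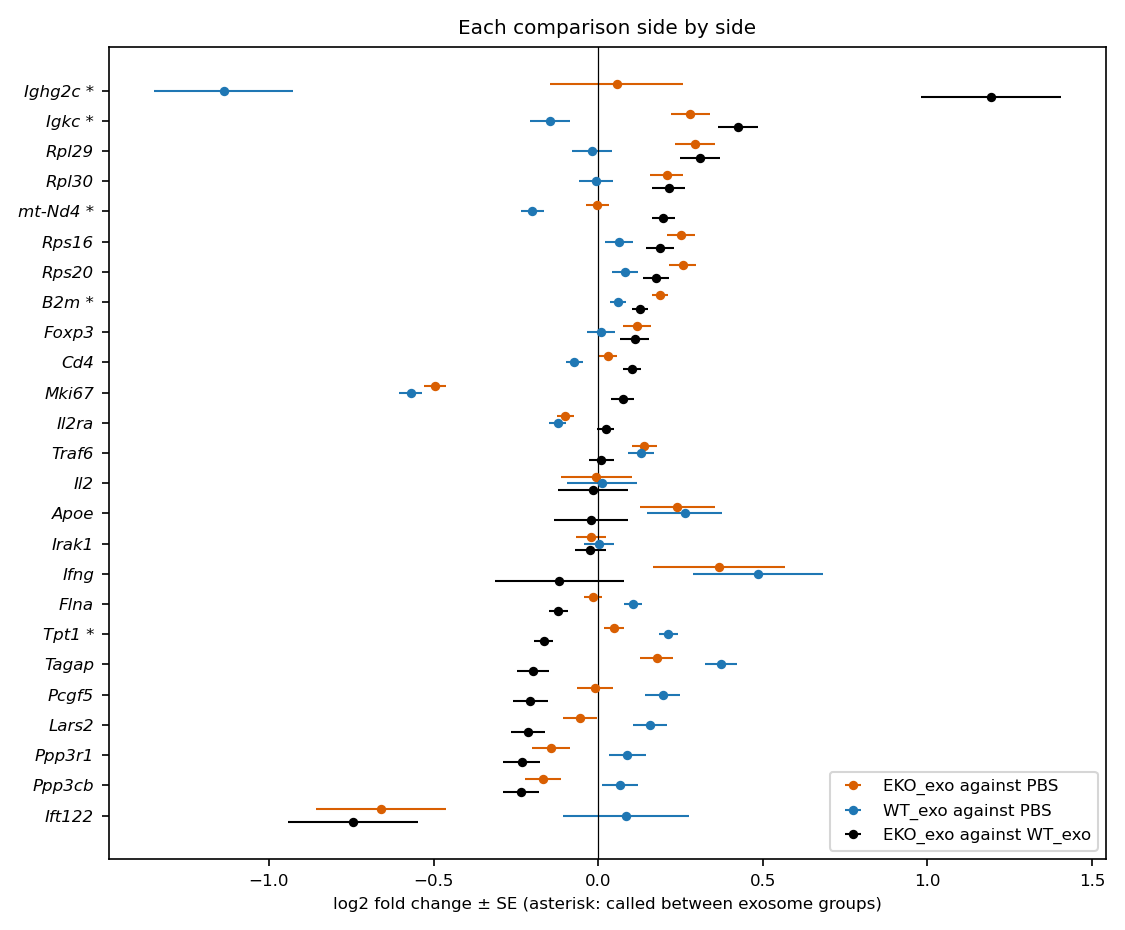
Log2 fold change ± SE (x axis) of the genes with the smallest p in each direction and of 9 genes given in any case (y axis), for EKO_exo against WT_exo in black, EKO_exo against PBS in orange and WT_exo against PBS in blue. An asterisk marks the 5 genes called between the exosome groups. The comparisons share libraries. For Mki67 the differences from PBS (-0.50 and -0.57) are far larger than that between the sources (0.07), while for mt-Nd4 the orange point lies at 0 and the blue one at -0.20.

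Several genes that define T cells had positive log2 fold changes in EKO_exo that did not pass the test. Cd4 held 897 CPM, 884 CPM and 878 CPM in EKO_exo and 827.5 CPM, 820 CPM and 830 CPM in WT_exo, with PBS at 884 CPM, 872 CPM and 848.5 CPM. Its EKO_exo and WT_exo libraries were tightly grouped and did not overlap, and the difference of 0.10 ± 0.027 log2 had an adjusted p of 0.322 (edgeR). Thy1, a surface glycoprotein of T cells, was at 0.15 ± 0.037 (adjusted p = 0.243), Cd3e at 0.13 ± 0.034 (adjusted p = 0.261) and Trbc2, a constant region of the T cell receptor beta chain, at 0.16 ± 0.042 (adjusted p = 0.322). DESeq2 called Cd4, with an adjusted p of 0.00858, and also Thy1, Cd3e and Trbc2. Of 11 T cell identity genes 5 were not overlapping and higher, where 5.88% of all genes tested were, and 0 were called by edgeR. That family was chosen after the values were seen, so its count is no separate support for a difference in these genes. Trac, the constant region of the alpha chain, was at 0.04 ± 0.033 and Cd28 at -0.05 ± 0.033.

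Receptors for growth and survival cytokines lay close together. Il2rg, the gamma chain shared by receptors for IL-2, IL-4, IL-7 and related cytokines, held 262 CPM, 259 CPM and 270.5 CPM in EKO_exo and 240 CPM, 237.5 CPM and 238.5 CPM in WT_exo, or 0.15 ± 0.037 log2 (adjusted p = 0.265 in edgeR and adjusted p = 0.014 in DESeq2). Il2rb, the beta chain, was at 0.06 ± 0.029 (adjusted p = 0.678). Il2ra, the inducible alpha chain known as CD25, held 1769 CPM, 1888 CPM and 1926 CPM in EKO_exo and 1804 CPM, 1836 CPM and 1853 CPM in WT_exo. Its groups overlapped, and the interval of the difference ran from -0.03 to 0.08. Il2 itself was at 20.2 CPM, 26 CPM and 21 CPM against 22.3 CPM, 22.9 CPM and 22.7 CPM, with an interval of -0.24 to 0.20.

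Proliferation genes lay farther from PBS in either exosome group than from each other between the sources. Mki67, the Ki-67 antigen of dividing cells, held 342.5 CPM, 341 CPM and 356 CPM in EKO_exo and 328 CPM, 343 CPM and 317.5 CPM in WT_exo, while PBS held 484 CPM to 497 CPM. The interval between sources was 0.00 to 0.15 log2 (adjusted p = 0.686, edgeR). Against PBS Mki67 was at -0.50 in EKO_exo (adjusted p = 6.06e-10) and at -0.57 in WT_exo (adjusted p = 2.02e-11). Ccna2, cyclin A2, was at 0.18 ± 0.067 between sources (adjusted p = 0.583), against -0.47 and -0.65 from PBS. Of 40 measured genes of the cell cycle and DNA replication list 0 were called between sources, 5 reached an unadjusted p under 0.05, all higher in EKO_exo, where 571 of 14684 genes tested were, and 27 of 40 had a positive log2 fold change. The list's median was 0.034 between sources, -0.318 for EKO_exo against PBS and -0.386 for WT_exo against PBS.

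Lineage regulators and effector genes gave no call. Foxp3, which defines regulatory T cells, held 199 CPM, 192 CPM and 194 CPM in EKO_exo and 170 CPM, 183 CPM and 189 CPM in WT_exo (0.11 ± 0.043 log2, adjusted p = 0.613, edgeR). Gata3, the regulator of Th2 cells, was at 0.14 ± 0.042 (adjusted p = 0.426), and WT_exo rather than EKO_exo differed from PBS in value, at -0.14 (adjusted p = 0.0502) against 0.00 (adjusted p = 0.975). Il17a, the cytokine of Th17 cells, was at -0.80 ± 0.366 (adjusted p = 0.676). Ifng, the Th1 cytokine, held 6.84 CPM, 6.28 CPM and 7.37 CPM against 9.02 CPM, 7.29 CPM and 5.95 CPM, with an interval from -0.52 to 0.28 log2. Among naive and quiescent T cell genes S1pr1, the receptor that lets T cells leave lymphoid tissue, was at 78.6 CPM, 70.0 CPM and 75.6 CPM against 55.7 CPM, 67.4 CPM and 61.8 CPM (0.28 ± 0.069, adjusted p = 0.243). DESeq2 called it (adjusted p = 0.021), as did edgeR on every gene with at least 1 count (adjusted p = 0.0275). Of the 22 genes of that list edgeR called 0. At an unadjusted p under 0.05 stood 5, all higher in EKO_exo, where 571 of 14684 genes tested did, and 6 were higher without overlap, where 5.88% of all genes tested were. The list's median was 0.041.

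Apoe in the T cells was at 16.7 CPM, 19.0 CPM and 17.6 CPM in EKO_exo, 19.4 CPM, 17.0 CPM and 17.8 CPM in WT_exo and 14.2 CPM, 16.9 CPM and 14.1 CPM in PBS. The exosome groups overlapped, with an interval of the difference from -0.25 to 0.21 log2. Of 22 measured genes for apolipoprotein E, its receptors, cholesterol efflux and LXR targets, 0 were called and 0 reached an unadjusted p under 0.05, and the median was -0.019. Irak1 and Traf6, the kinase and ubiquitin ligase of Toll-like and interleukin-1 receptor signals, had intervals from -0.12 to 0.07 and from -0.07 to 0.09 log2. Their list, which holds known targets of miR-146a, had a median of -0.023 between sources, beside 0.089 for EKO_exo and 0.094 for WT_exo against PBS.

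Metabolic lists held no called gene between sources apart from mt-Nd4. Glycolysis and lactate transport had medians of -0.143 for EKO_exo and -0.17 for WT_exo against PBS and 0.006 between sources. Ldha, lactate dehydrogenase A, held 1086 CPM, 1156 CPM and 1144 CPM in EKO_exo and 1204 CPM, 1158 CPM and 1196 CPM in WT_exo (-0.07 ± 0.029 log2, adjusted p = 0.639, edgeR). Fatty acid oxidation was at 0.007, the tricarboxylic acid cycle at -0.011, cholesterol synthesis and uptake at -0.018, and nuclear oxidative phosphorylation at 0.036 between sources. In the last list 7 of 47 genes reached an unadjusted p under 0.05, all higher in EKO_exo, where 571 of 14684 genes tested were, among them Uqcrq of complex III at 0.18 ± 0.063 and Atp5d of ATP synthase at 0.11 ± 0.039. Type I interferon-stimulated genes had the highest median of the 30 lists of T cell pathways and lineages counted here, 0.076, with 25 of 32 positive and 0 called. The SD of that list between libraries of a group, 0.0905, was wider than the median. At an unadjusted p under 0.05 stood 3 higher and 2 lower, where 571 and 468 of all 14684 genes tested did. The groups did not overlap for 0 higher and 2 lower, where 5.88% and 5.97% of all genes tested did not. Irf7, a master regulator of interferon genes, held 32.3 CPM in EKO_exo replicate 1 and 23.5 CPM in replicates 2 and 3, where WT_exo held 16.4 CPM, 24.3 CPM and 18.0 CPM (0.43 ± 0.129, adjusted p = 0.426, and 0.0394 on every gene with at least 1 count). That list's median was 0.195 with EKO_exo replicate 1 as the single library of its group.

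**Figure D5:**
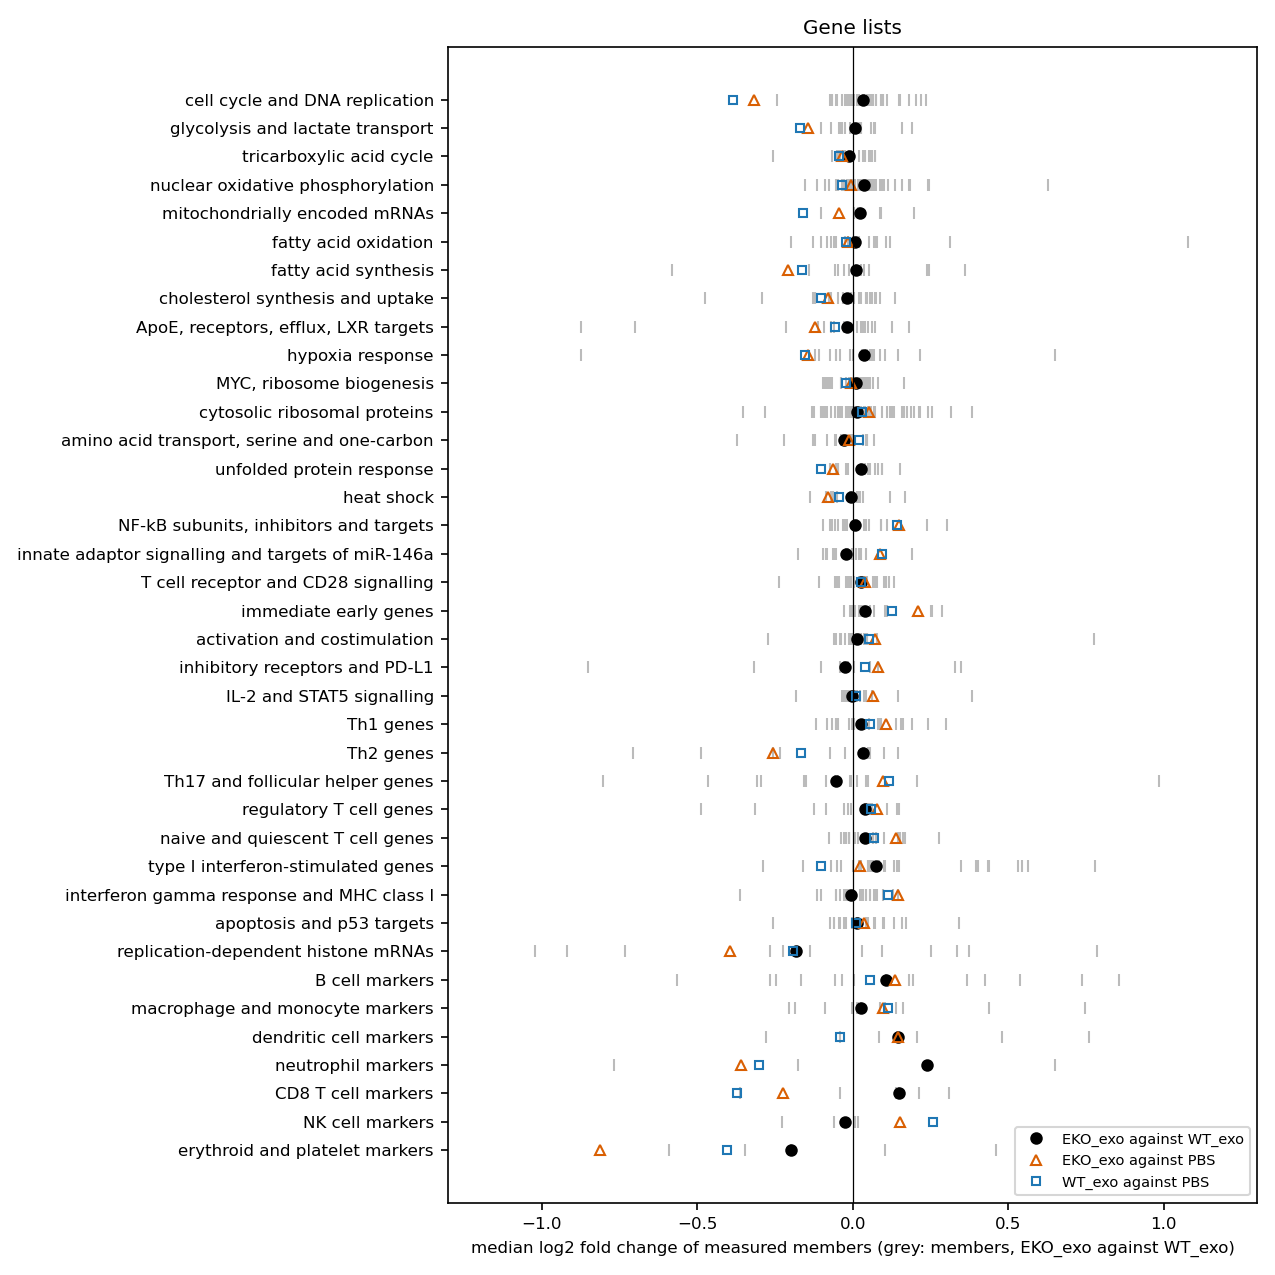
Median log2 fold change (x axis) of the measured members of 38 gene lists (y axis). Black circles are EKO_exo against WT_exo, open triangles and squares are EKO_exo and WT_exo against PBS, and grey ticks are single genes between the sources, 8 of which lie beyond the axis at 1.3 either way. Black circles of the 30 T cell lists lie between -0.053 and 0.076, while the cell cycle list reaches -0.386 against PBS.

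Over all 38 lists, 3 held a called gene: B2m in the list of interferon gamma response and MHC class I, mt-Nd4 among the mitochondrial mRNAs and Igkc among B cell markers. The histone list, with a median of -0.181, and the marker lists of other cells had wider medians on few counts. Markers of macrophages, the cells that made the vesicles, summed to 334 to 357 CPM in EKO_exo, 330 to 337 CPM in WT_exo and 314 to 326 CPM in PBS over 13 of 25 listed genes. Of those 13 genes 9 had a positive and 4 a negative log2 fold change between sources, with a median of 0.025 and 0 called. Among them Csf1r was at 0.75 (unadjusted p = 0.0724, edgeR), Cd68 at -0.003 and Lyz2 at 0.01. Of the listed genes not tested, Marco, Cd163 and C1qa had 0 counts in all 9 libraries. Adgre1, Mertk and Mrc1 were below the count filter. Ly6c2, a monocyte marker, held 8.48 CPM, 6.82 CPM and 13.2 CPM in EKO_exo and 8.73 CPM, 6.37 CPM and 6.01 CPM in WT_exo (adjusted p = 0.656, edgeR).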

How the data were processed

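Messenger RNA of stimulated splenic CD4+ T cells was measured in 9 libraries, 3 per group, made with a Universal Plus mRNA-Seq kit per the labels' protocols. The authors deposited whole-number, unnormalized counts for each Ensembl gene, and these were used. STAR 2.7.5c was the aligner and GRCm38 the build, per the submitters' processing notes. How reads were counted (tool, strand, annotation) is not given in the sources used here. Symbols and coordinates came from GENCODE M21 on the same build, where all 55536 identifiers had a symbol.

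Groups came from the sample titles. Replicates are termed biological in the series text, though no label ties them to separate mice. The p-values thus reflect the variation among these 9 cultures, which may be technical. No pair of libraries within a group agreed within sampling noise (chi-square per degree of freedom 5.15 to 9.32).

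Counts were analysed with edgeR 4.0.16 in R 4.3.3. Genes were kept by filterByExpr (minimum count 10, minimum total 15), which left 14684 genes with at least 99.92% of the counts of each library. TMM set the library sizes, a single model of the 3 groups, without covariates, used all 9 libraries, and contrasts were tested by the quasi-likelihood F test (6 residual and 21.1 prior degrees of freedom) with Benjamini-Hochberg adjustment over all genes and a threshold of 0.05. PBS libraries enter the contrast between sources through the shared estimate of the spread. Fold changes are log2 with their SE, and single values were compared by exact permutation of the samples. The script was tested on simulated counts. Alternatives were median-ratio size factors, DESeq2 1.42.0, limma-voom (limma 3.58.1) with sample quality weights, a robust prior, other count filters, the 6 exosome libraries alone, the replicate number as a block, and each library left out. Each EKO_exo library as the single one of its group was added after seeing the data.

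The comparison and the 38 gene lists were chosen with earlier results of these data known, and the gene families were chosen after the values were seen. Lists are described by counts and medians with no set test. The text names called genes whose mean reached 5 CPM, with non-overlapping groups and a gene symbol that is no clone or pseudogene name, filled to 8 per direction by smallest p, the member of each list with the smallest p or called, and Apoe, Cd4, Il2, Ifng, Il2ra, Mki67, Foxp3, Irak1 and Traf6. Other genes named, family members in the main, were chosen after their values were seen.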

Additional observations from a re-analysis of the deposited data

How the results depend on the processing

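The 5 called genes kept their direction in all 99 instances of a gene and an alternative that gave a value. Their EKO_exo and WT_exo libraries do not overlap, so leaving libraries out could hardly reverse the direction. The kept direction in those fits is thus no separate support. DESeq2 gave Ighg2c no adjusted p, so that value is left out. The number of genes called depended on the tool and the filter. Beside 4 higher and 1 lower in EKO_exo, DESeq2 called 23 and 9, edgeR on every gene with at least 1 count 24 and 4, edgeR on genes averaging 5 CPM or more 7 and 2, and limma-voom with quality weights 5 and 2. DESeq2 kept 4 of the 5 genes and those filters and limma-voom kept all 5. With 1 library left out, 0 to 5 genes were higher and 0 to 2 lower. Without WT_exo replicate 2 edgeR called 0 genes, with 927 at an unadjusted p under 0.05. Without EKO_exo replicate 2 or WT_exo replicate 3 Igkc alone was called, and without WT_exo replicate 1 Igkv19-93 alone. EKO_exo replicate 1 as the single library of its group gave 42 higher and 15 lower, replicate 2 gave 0 and 0 (with 1050 at an unadjusted p under 0.05) and replicate 3 gave 19 and 21. In those fits the spread came from PBS and WT_exo alone, and the lone library is assumed to vary like them. The cause of these changes was not tested.

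The replicate numbers did not pair the samples: deviations of same-numbered libraries from their group means correlated at -0.07 to 0.019. With the number as a replicate block 1 gene was higher, Igkc, and 0 were lower, with 971 at an unadjusted p under 0.05.

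Genes that were not called changed sign in 17 instances. With EKO_exo replicate 3 as the single library, Ifngr1 was at -0.039 and Irak1 at 0.029. With replicate 2, Ly6c2 was at -0.045, Irak1 at 0.001, Apoe at 0.073 and Il2 at 0.200. With replicate 1, Il2ra was at -0.055 and Traf6 at -0.024. Il2 was at 0.001 in limma-voom. Over the libraries left out in turn, Il2ra ran from -0.003 to 0.059, Ifng from -0.256 to 0.047, Irak1 from -0.059 to 0.016, Traf6 from -0.003 to 0.024, Apoe from -0.071 to 0.034 and Il2 from -0.136 to 0.052. List medians stayed within the spread between libraries in 671 of 757 instances. For 0 of 2988 genes below 1 CPM was a difference bounded to 1.5-fold.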

Other observations

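Some genes near the limit of detection differed in counts between the sources without passing the test, or were too low to be tested. Gzma, a granule protease of cytotoxic lymphocytes, had 11, 19 and 24 counts in EKO_exo replicates 1, 2 and 3, 4, 5 and 9 in WT_exo and 34, 23 and 34 in PBS, with an adjusted p between sources of 0.623 (edgeR). mt-Nd3, a complex I subunit of the mitochondrial genome, had 0, 1 and 0 counts in EKO_exo, 1, 0 and 3 in PBS and 14, 9 and 6 in WT_exo, and was below the count filter. S100a9, a calcium-binding protein of neutrophils, had 0, 0 and 18 counts in EKO_exo, 0, 0 and 0 in WT_exo and 1, 18 and 21 in PBS, so that libraries of 1 group differed as much as the groups did.

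Genes at 0 where the other 2 libraries of the group predicted at least 10 counts numbered 87, 44 and 145 in EKO_exo replicates 1, 2 and 3, 48, 38 and 33 in WT_exo and 30, 35 and 27 in PBS, where the fitted model gave 5.55 to 6.97 per library. None of the 5 called genes had such a library.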
